A study of Rattus norvegicus with 6 samples.

Results

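The genes of the rat whose symbol is Zfp followed by a number were measured in 3 RNA-seq samples of Schwann cell precursors (SCPs) and 3 samples of repair Schwann cells (RSCs). Members were found by symbol in the deposited transcript tables, and their FPKM (sequenced fragments per kilobase of transcript, set relative to the total aligned) were summed by symbol. Of 238 symbols listed, 233 were above 0 in at least 1 sample, and the 197 whose mean over the 6 samples reached 1 FPKM were tested, out of 13003 genes tested and 29468 symbols listed. Members were thus chosen by their mean level over both groups, and those on either side of that threshold were Zfp398 at 1.04 and Zfp169 at 1.09 FPKM inside it, and Zfp93 at 0.965 and Zfp483 at 0.955 FPKM outside it. The 5 members listed at 0 in every sample were Zfp42, Zfp352, Zfp353, Zfp474 and Zfp494, and the other 36 untested members were above 0 but below the threshold.

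All 6 samples are labelled as wild type rats of the LEWIS strain, while the study's methods give RFP transgenic LEWIS rats as the source of cells for grafting. SCPs were taken at embryonic day 14 from the sciatic nerves of both sides and the brachial plexus, with no treatment. RSCs were taken from adult rats, 10 weeks old by the labels, from the sciatic nerve beyond the cut 1 week after transection. Both were dissociated with collagenase and trypsin, the RSCs in a stronger collagenase solution and for longer, and cells that stuck quickly to an uncoated flask were removed, a step meant to take out fibroblasts and macrophages. The samples are therefore dissociated nerve cells and not a sorted population, and age, body site, injury and digestion cannot be told apart in the comparison. The labels do not say whether the 3 preparations of a group came from separate litters or animals, so p-values rest on the spread between preparations, moderated over all genes in the fit.

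Zfp symbols are given to genes that encode proteins with zinc fingers, most of them of the C2H2 kind, in which cysteines and histidines hold a zinc ion and the finger reads bases of DNA. A large share of the family carries a KRAB box, which binds the corepressor Trim28 (KAP1). Trim28 brings the H3K9 methyltransferase Setdb1 and HP1 proteins (Cbx1, Cbx3 and Cbx5), which silence transposons and imprinted loci. Other Zfp proteins have been given the same kind of name while doing different work, such as mRNA decay, ribosome quality control or spindle assembly.

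Depth relative to the most deeply sequenced sample, read from the ratio of coverage to FPKM, was 0.878 to 1.00 in SCPs and 0.790 to 0.841 in RSCs. Sox10, the transcription factor that defines the Schwann lineage, was at 179, 175 and 181 FPKM in SCPs and at 149, 143 and 143 FPKM in RSCs, so the lineage marker was high in every sample. Of 9 tested Schwann lineage markers, 5 were higher in RSCs and 1, Sox10, in SCPs, a call lost with median-of-ratios scaling (log2 fold change -0.08, from -0.30), without the variance trend of the fit and with the replicate number as a block. Markers of other cells moved with the groups. All 9 tested leukocyte markers of 12 were higher in RSCs, with a summed level of 14.8 to 43.7 FPKM in SCPs and 2227 to 2675 FPKM in RSCs, and Cd68 was at 0 in 2 SCP samples and the untested T cell marker Cd3e in all 3. Of 8 fibroblast markers, 6 were higher in RSCs (663 to 1033 FPKM in SCPs and 5371 to 8023 in RSCs) and 1 in SCPs. All 7 tested erythroid markers of 8 were higher in SCPs (30637 to 131601 FPKM, against 1419 to 1835 in RSCs), and so were all 8 skeletal muscle markers (73.0 to 294 FPKM, against 5.24 to 7.93), with Myod1, Myf5 and Pax7 at 0 in every RSC sample. Of 8 neuron markers 5 were tested and 2 were higher in SCPs (31.3 to 53.2 FPKM, against 18.6 to 24.9), and of 8 endothelial and mural markers 7 were tested and 1 was higher in RSCs (74.0 to 260.0 FPKM in SCPs and 126 to 203 in RSCs). With transcripts that carry no gene name added, as described below, 11 leukocyte markers were tested and all 11 were higher in RSCs, among them Cybb, and Cspg4 and Rgs5 were the 2 of 8 endothelial and mural markers higher in RSCs. Rgs5, a pericyte gene listed at 0 in every RSC sample by name, was then at 4.98, 9.99 and 5.28 FPKM in SCPs and at 98.4, 79.9 and 75.3 FPKM in RSCs. The part of these cells in the Zfp values was not tested, and in bulk RNA fewer cells of a type and less RNA per cell cannot be told apart.

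As a class, the Zfp genes were transcribed at low levels and were lower in RSCs more often than higher. Their mean level over the 6 samples had a median of 4.90 FPKM and quartiles of 2.28 and 9.64, where all tested genes had a median of 8.97 and quartiles of 3.50 and 23.6, and 45 members reached 10 FPKM. Summed over all listed members, the FPKM came to 2070, 1970 and 1973 in SCP replicates 1, 2 and 3 and to 1520, 1520 and 1613 in RSC replicates 1, 2 and 3. The 3 SCP sums all lay above the 3 RSC sums. A mean of at least 1 FPKM was reached in both groups by 174 members, in SCPs alone by 18 and in RSCs alone by 5. A member of the last 2 kinds passed through the group in which it was high, and they held 4 of the genes counted as higher in SCPs and 1 of those higher in RSCs.

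The samples were compared with limma on log2(FPKM + 1), a scale that understates the change of genes at low FPKM, and differences are given as RSC minus SCP. A gene was called at the study's threshold, an unadjusted p under 0.01, and the p-values printed for single genes are adjusted by the Benjamini-Hochberg method over every gene in the fit. Of the 197 members, 44 (22.3%) were higher in SCPs and 5 (2.54%) were higher in RSCs, while 148 did not pass. Over all genes tested, 22.4% were higher in SCPs and 18.1% were higher in RSCs, so the share of members called higher in SCPs was at the background and the share called higher in RSCs was below it. In either direction 24.9% of the members were called, against 40.5% of all genes. The log2 fold change had a median of -0.48 over the members and of -0.17 over all genes tested, and it was below 0 in 148 members (75.1%) and in 56.0% of all genes. The 3 SCP values lay apart from the 3 RSC values in 97 members (49.2%, where all genes gave 58.6%), with 85 of these higher in SCPs and 12 in RSCs.

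At over 4-fold, the study's second threshold, Zfp668 and Zfp444 were higher in SCPs (3.78% of all genes were) and Zfp36 was higher in RSCs (7.81% of all genes were). Leaving out SCP replicate 1 or SCP replicate 2 lowered the number called higher in SCPs to 29 or 28, and leaving out RSC replicate 2 or RSC replicate 3 lowered the number higher in RSCs to 3. The share of all genes called in either direction fell as well, from 40.5% to 34.9%, 35.0%, 34.3% and 34.6% in that order. With median-of-ratios scaling, which moved the median of all genes from -0.17 to 0.01, 30 members were higher in SCPs and 7 in RSCs, and the member median was -0.32. The same scaling turned the split over all genes from 2917 higher in SCPs and 2351 in RSCs to 2195 and 2763.

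**Figure D1:**
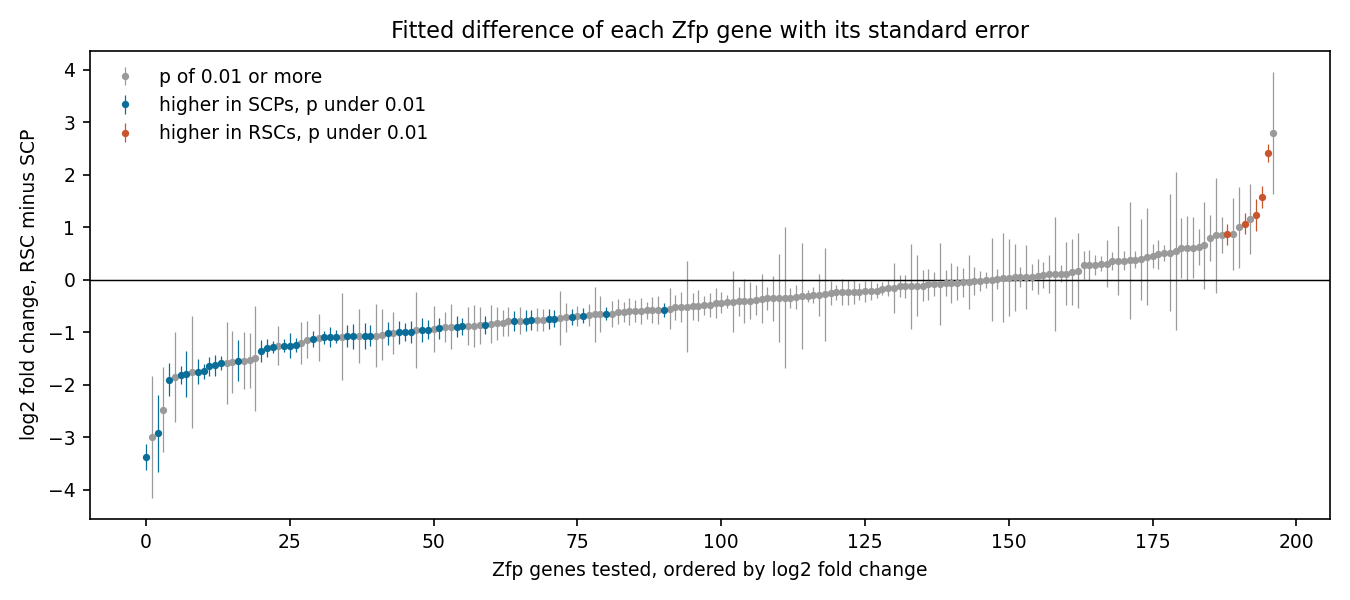
Fitted log2 fold change (RSC minus SCP, log2(FPKM + 1)) of each of the 197 tested Zfp genes, ordered from the lowest to the highest, with bars for the standard error from limma. Blue points mark the 44 genes higher in SCPs at p under 0.01, red points the 5 higher in RSCs and grey points the rest, and 148 of the points lie below 0.

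Transcripts without a gene name held part of the expression of these genes. Cufflinks assembled such transcripts from each sample separately, and a gene whose reads were placed in them is listed at a low value or at 0 under its name. Among the 197 members, 52 had a value of 0 in at least 1 sample, and 47 of the 148 uncalled members were among them. When each unnamed transcript was counted with the named gene of the same Cufflinks locus that it overlapped most, without regard to strand, 214 members reached a mean of 1 FPKM and 8 of them still held a 0. The unnamed transcripts then made up 27.3% to 29.7% of the members' FPKM in SCPs and 19.9% to 22.3% in RSCs. Of the FPKM of all transcripts, unnamed ones held much the same shares, 26.1% to 31.9% in SCPs and 18.6% to 23.4% in RSCs.

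In this fuller count, 116 of 214 members were higher in SCPs and 8 in RSCs. The background moved too, to 34.1% of all genes higher in SCPs and 23.2% higher in RSCs, and for either direction to 57.3%, where the members gave 57.9%. Over 4-fold higher in SCPs were Zfp668 and Zfp618 (4.58% of all genes were), and over 4-fold higher in RSCs was Zfp36 (8.57% of all genes were). The median log2 fold change of the members was -0.66 and that of all genes -0.24, and 180 members (84.1%) were below 0, against 58.9% of all genes. The groups lay apart in 164 members, of which 150 were higher in SCPs (72.4% of all genes lay apart). Of the 44 genes higher in SCPs by named transcripts 42 were called again, the exceptions being Zfp692 and Zfp868, and 60 further members of the 197 were called higher in SCPs, together with 14 of the 17 members that were tested only in this count. All 5 genes higher in RSCs were called again. The median coefficient of variation between preparations fell from 24.7% to 13.6% in SCPs and from 22.8% to 13.4% in RSCs, and the median standard error of the log2 fold change from 0.26 to 0.16.

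**Figure D2:**
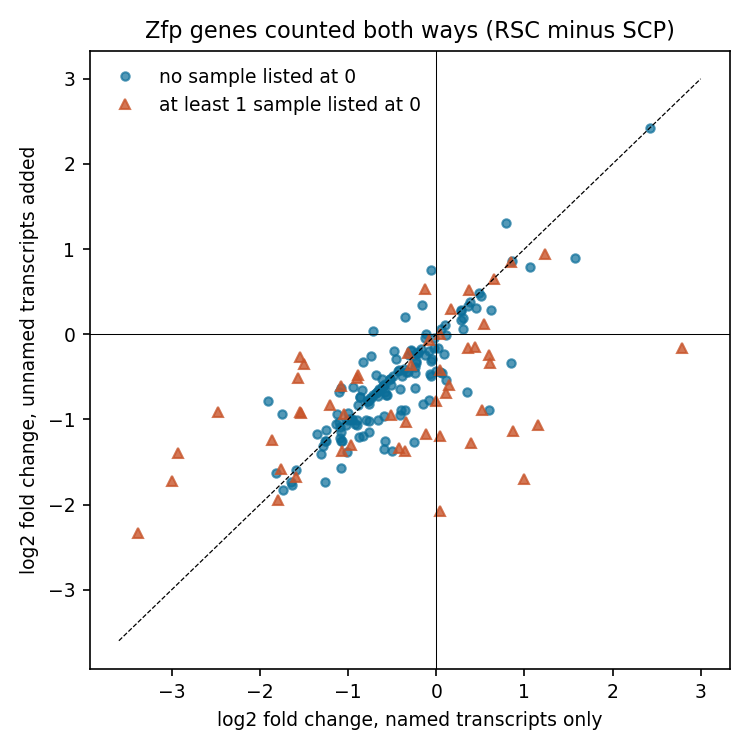
Log2 fold change (RSC minus SCP) of each Zfp gene tested both ways, from named transcripts on the horizontal axis and with unnamed transcripts added on the vertical axis. Triangles mark the 52 genes with a value of 0 in at least 1 sample and circles the others, and the dashed line marks equal values, about which the triangles are spread more widely than the circles.

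The gene with the largest difference among those higher in SCPs was Zfp668, a protein with many zinc fingers. It was at 12.4, 9.96 and 10.6 FPKM in SCPs, at 0 in RSC replicates 1 and 2 and at 0.488 FPKM in RSC replicate 3. The log2 fold change was -3.38 (SE 0.24, adjusted p = 0.000189 by limma). Zfp668 reached a mean of 1 FPKM in SCPs alone, and groups that lay apart were a condition for naming it. With unnamed transcripts added, RSC replicates 2 and 3 stood at 2.90 and 2.41 FPKM and the log2 fold change was -2.33.

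Zfp646 is its neighbour on chromosome 1 of rn6, with 531 bases between the end of Zfp668 (chr1:199310935-199320727) and the start of Zfp646 (chr1:199321259-199331256). Zfp646 was at 16.5, 15.3 and 14.6 FPKM in SCPs and at 6.05, 2.37 and 2.59 FPKM in RSCs. The groups did not overlap, and the log2 fold change was -1.90 (SE 0.31, adjusted p = 0.0040). The fuller count put all 3 RSC values between 13.4 and 15.3 FPKM, against 25.1 to 26.4 FPKM in SCPs, with a log2 fold change of -0.78, still called.

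Because the pair moved in the same direction, the 250 bases before each annotated start in RefSeq are shown, on the GRCr8 build, which is not the build of the deposited tables. Zfp668 is read from the minus strand (chr1:191914912-191915161) and Zfp646 from the plus strand (chr1:191915851-191916100), so that the genes point away from each other. Capitals mark an EGR site, searched on both strands as GCGNGGGCG.
Zfp668: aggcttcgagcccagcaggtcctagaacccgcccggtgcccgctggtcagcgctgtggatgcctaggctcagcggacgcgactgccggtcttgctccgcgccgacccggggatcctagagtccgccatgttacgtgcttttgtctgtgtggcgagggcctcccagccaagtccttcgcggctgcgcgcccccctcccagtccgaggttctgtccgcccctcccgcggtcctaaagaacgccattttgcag
Zfp646: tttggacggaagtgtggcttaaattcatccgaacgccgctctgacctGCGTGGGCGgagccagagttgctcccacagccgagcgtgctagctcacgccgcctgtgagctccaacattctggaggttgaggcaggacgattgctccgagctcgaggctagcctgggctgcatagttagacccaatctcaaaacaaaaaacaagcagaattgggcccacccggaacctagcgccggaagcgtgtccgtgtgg

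The Zfp668 window held 25 CpG dinucleotides and the Zfp646 window 18. Both held a GC box (GGGCGG on either strand), which 34.9% of all 27457 RefSeq promoters of 300 bases and 63.3% of those of tested genes also held, and in Zfp646 it overlapped the EGR site, a motif found in 5.29% of all promoters and 10.3% of those of tested genes. Zfp646 also held an ETS site (CCGGAAG on either strand), 20 to 14 bases before the start.

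Over the family, 195 of the 197 tested members matched a RefSeq symbol and 163 had a promoter on the same chromosome. The ETS site was present in 37 of these 163 promoters (22.7%), against 9.22% of all promoters and 17.5% of the promoters of tested genes. The members had a median of 18 CpG dinucleotides in 300 bases, all promoters 7 and the tested genes 21. Among members called higher in SCPs the ETS site was in 8 of 37 promoters (21.6%) and among uncalled members in 28 of 121 (23.1%), so called and uncalled members gave close shares.

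Zfp444, which encodes a SCAN domain protein, was at 16.8, 7.69 and 14.2 FPKM in SCPs and at 0, 0 and 4.33 FPKM in RSCs. Its log2 fold change of -2.93 (SE 0.73, adjusted p = 0.019) rested on the zeros, since adding the unnamed transcripts gave 28.0 to 34.1 FPKM in SCPs, 10.6 to 12.6 FPKM in RSCs and a log2 fold change of -1.40. In named transcripts the call was lost without any one sample except RSC replicate 3, with log2 fold changes of -3.73 to -2.53, while in the fuller count the adjusted p was 9.45e-05 by limma.

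Zfp428 was at 52.4, 50.3 and 45.5 FPKM in SCPs and at 17.0, 11.2 and 12.4 FPKM in RSCs, a log2 fold change of -1.81 (SE 0.17, adjusted p = 0.000466). Zfp422 was at 53.9, 41.8 and 45.8 FPKM in SCPs and at 15.2, 12.2 and 12.7 FPKM in RSCs, a log2 fold change of -1.74 (SE 0.14, adjusted p = 0.00028). In both genes the highest RSC value was under the lowest SCP value by a wide margin, and both calls held with each sample left out. Zfp629 was at 19.2, 15.8 and 17.5 FPKM in SCPs and at 5.06, 4.91 and 5.39 FPKM in RSCs (log2 fold change -1.59, SE 0.14).

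Zfp384, a nuclear matrix protein that binds runs of A and T, was at 41.1, 37.2 and 37.9 FPKM in SCPs and at 14.4, 7.22 and 11.9 FPKM in RSCs. Its log2 fold change was -1.75 (SE 0.24, adjusted p = 0.0021) and -0.93 with unnamed transcripts added, which brought the RSC values to 18.1 to 21.3 FPKM.

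**Figure D3:**
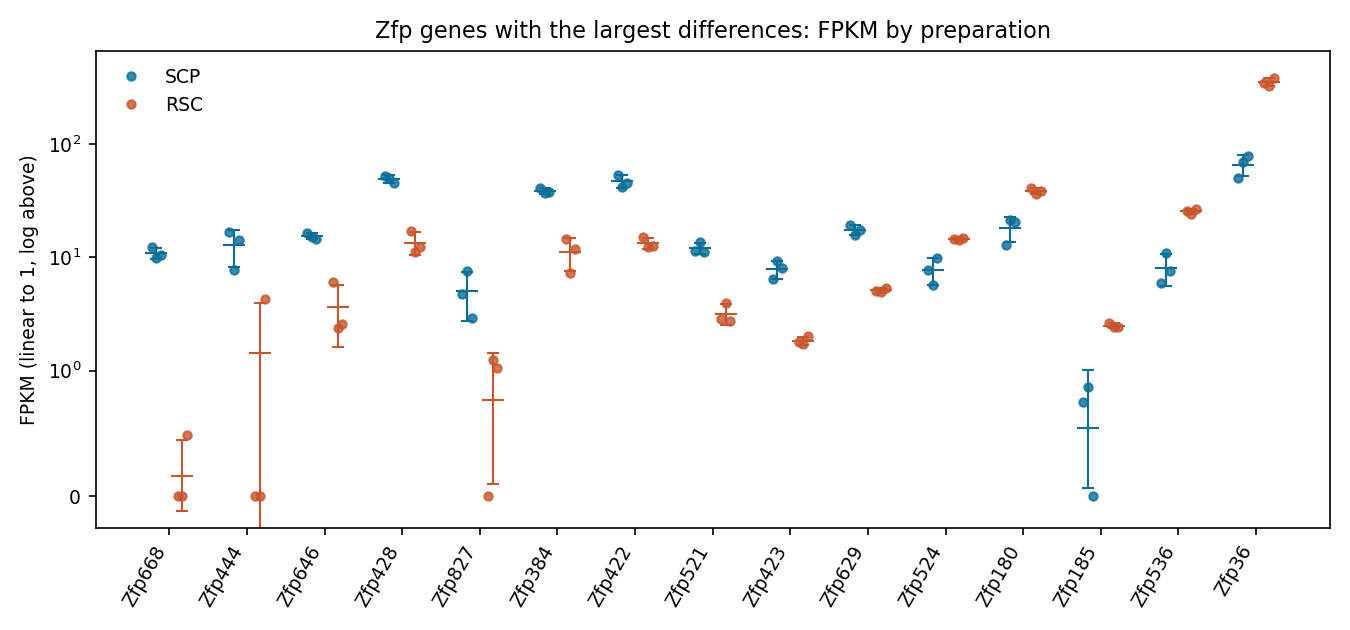
FPKM of the 10 genes with the lowest and the 5 with the highest log2 fold change among Zfp genes at p under 0.01 whose groups did not overlap. Points are samples (blue SCP, red RSC, 3 each), horizontal lines are means and bars are 1 SD, on an axis that is linear up to 1 FPKM and logarithmic above. Zfp36 stands apart in RSCs, between 327 and 384 FPKM, while Zfp668 is at or near 0 in the RSC samples.

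The clearest member in the other direction was Zfp36, which encodes tristetraprolin, a protein that binds AU-rich elements of mRNAs and speeds their decay. It was at 50.3, 70.3 and 77.9 FPKM in SCPs and at 350, 327 and 384 FPKM in RSCs. Every RSC value was more than 4 times the highest SCP value, with a log2 fold change of 2.42 (SE 0.17, adjusted p = 0.000181 by limma). The range over the samples left out was 2.24 to 2.55, and no unnamed transcript was added to the gene in any sample. In RSCs it was the most abundant member of the family, at 353.6 ± 28.8 FPKM (SD, n = 3), and in SCPs it was at 66.2 ± 14.3 FPKM.

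Zfp36 is an immediate early gene in many cell types, and genes listed for the response to dissociation moved with it. Of 10 such genes 8 (80%, where all genes gave 18.1%) were higher in RSCs, among them Fos, Junb, Egr1, Atf3 and Dusp1. The summed level was 792 to 881 FPKM in SCPs and 1795 to 2630 FPKM in RSCs. Not called were Ier2 and Jun, the latter at 444, 423 and 483 FPKM in SCPs and at 118, 635 and 672 FPKM in RSCs. In the fuller count all 10 were called higher in RSCs (23.2% of all genes were), Jun with a log2 fold change of 0.63. The summed level was then 876 to 1012 FPKM in SCPs and 3106 to 3294 FPKM in RSCs. The list holds AP-1 genes such as Fos, and the paper describes AP-1 (Jun/Fos) as critical to how RSCs act in repair. Injury and digestion cannot be told apart here. Leukocytes also express Zfp36, and their markers moved the same way, as given above. The part of injury, digestion or leukocytes in the Zfp36 level was not tested.

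The 250 bases before the Zfp36 start (RefSeq, GRCr8, minus strand, chr1:92799109-92799358) are shown because genes of that response carry such motifs close to the start. Capitals mark an EGR site 79 to 71 bases before the start and a CArG box, the site of serum response factor, 32 to 23 bases before it.
Zfp36: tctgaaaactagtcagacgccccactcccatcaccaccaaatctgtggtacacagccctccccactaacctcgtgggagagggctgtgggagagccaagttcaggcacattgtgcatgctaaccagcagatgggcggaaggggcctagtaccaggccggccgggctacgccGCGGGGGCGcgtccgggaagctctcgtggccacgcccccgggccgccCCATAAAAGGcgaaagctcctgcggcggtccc

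A CArG box was present in 1.64% of all RefSeq promoters and in 2 of the 163 promoters of tested members (1.23%), and an EGR site in 17 of them (10.4%, against 5.29% of all promoters and 10.3% of those of tested genes). A GC box ends at the first base of the CArG box. These letters are a description of the window, and binding was not measured.

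The close relatives of Zfp36 differed less. Zfp36l2 was at 29.3, 28.3 and 29.1 FPKM in SCPs and at 40.3, 35.2 and 38.7 FPKM in RSCs, without overlap (log2 fold change 0.38, SE 0.09, adjusted p = 0.015), a call that was lost without any one sample except RSC replicate 2, over which the log2 fold change ran from 0.34 to 0.44. Zfp36l1 was at 117, 48.7 and 113 FPKM in SCPs and at 137, 84.3 and 129 FPKM in RSCs, with adjusted p = 0.44, and its log2 fold change of 0.40 was -0.01 without SCP replicate 2. In the fuller count Zfp36l1 was at 117, 113 and 113 FPKM in SCPs and at 137, 142 and 129 FPKM in RSCs. The groups then did not overlap, but the gene was short of the threshold (log2 fold change 0.24, adjusted p = 0.018 by limma). Of the 13 tested genes in a list of the Zfp36 family and the deadenylation and decapping machinery, 5 were higher in SCPs (Cnot1, Cnot3, Cnot7, Dcp2 and Khsrp) and 2 in RSCs (Zfp36l2 and Dcp1a). Dcp1a, a decapping activator, was listed at 0 in all 3 SCP samples, and in the fuller count it was at 8.00, 8.64 and 8.22 FPKM in SCPs and at 5.26, 5.49 and 5.35 FPKM in RSCs and was called higher in SCPs (log2 fold change -0.54, adjusted p = 0.0043), which left 9 of 14 genes higher in SCPs and 1 in RSCs. Cnot1, the scaffold of the deadenylase that tristetraprolin recruits, was at 32.2, 27.9 and 22.5 FPKM in SCPs and at 10.4, 11.7 and 8.11 FPKM in RSCs, with a log2 fold change of -1.36.

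Other members that act on RNA or proteins gave a mixed picture. Of the 8 tested, Zfp207 was higher in SCPs and Zfp36 in RSCs, and the median log2 fold change was -0.02. Zfp207, also called BuGZ, is a spindle protein that stabilizes Bub3, and it had the highest mean level of the family in SCPs. It was at 234, 181 and 229 FPKM in SCPs and at 89.5, 81.4 and 91.3 FPKM in RSCs, with a log2 fold change of -1.28 (SE 0.12, adjusted p = 0.000466). The lowest SCP value was about 2 times the highest RSC value. All 7 tested genes of a proliferation list of 8 were higher in SCPs as well, with a summed level of 401 to 520 FPKM against 180 to 199 FPKM in RSCs (7 of 8 in the fuller count, where Pcna was not called), and the part of cell division in the Zfp207 level was not tested.

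Zfp598, a ubiquitin ligase that senses collided ribosomes, was at 35.8, 30.2 and 31.5 FPKM in SCPs and at 25.0, 28.7 and 24.2 FPKM in RSCs, which did not overlap but gave adjusted p = 0.071. Zfp622, a factor of the maturation of the large ribosomal subunit, had adjusted p = 0.11 and Zfp593, another factor of ribosome production, adjusted p = 0.42. Zfp346, which binds double-stranded RNA, was at 5.59, 8.05 and 5.22 FPKM in SCPs and at 2.95, 4.65 and 3.67 FPKM in RSCs (adjusted p = 0.082). The remaining values in this group were uneven between preparations. Zfp830, a splicing protein, was at 0 in SCP replicate 1 and at 17.8 and 12.6 FPKM in the other SCP samples. In the fuller count it was at 14.3, 17.8 and 15.4 FPKM in SCPs and at 7.73, 8.88 and 7.66 FPKM in RSCs, and was called higher in SCPs (log2 fold change -0.89). Zfp638, which silences unintegrated retroviral DNA, likewise went from adjusted p = 0.89 to a log2 fold change of -0.54 (adjusted p = 0.0046).

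Members with a role at chromatin lay on the SCP side about as often as the family. Of 13 tested, 10 (76.9%) had a log2 fold change below 0, where the family gave 75.1%, and 4 (30.8%, where the family gave 22.3%) were higher in SCPs by limma and none in RSCs, also at an unadjusted p under 0.05. With unnamed transcripts added, 9 of 14 (64.3%) were higher in SCPs and none in RSCs, where the family gave 54.2% higher in SCPs and all genes 34.1%. Zfp609, a partner of the Integrator complex and Nipbl, was at 23.0, 22.3 and 18.6 FPKM in SCPs and at 7.96, 8.08 and 8.96 FPKM in RSCs (log2 fold change -1.25, SE 0.13, adjusted p = 0.000777). Zfp827, which recruits the NuRD complex, was at 4.72, 7.64 and 2.93 FPKM in SCPs and at 0, 1.24 and 1.05 FPKM in RSCs. By named transcripts it reached a mean of 1 FPKM in SCPs alone. Its call (log2 fold change -1.80, adjusted p = 0.019) was lost without any one sample except SCP replicate 3, with log2 fold changes of -2.08 to -1.43, while in the fuller count it was at 7.06 to 7.64 FPKM in SCPs and at 1.05 to 1.24 FPKM in RSCs (log2 fold change -1.95, adjusted p = 3.54e-05).

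Zfp57, a KRAB protein that keeps DNA methylation at imprinted loci, was at 9.32, 9.93 and 13.2 FPKM in SCPs and at 3.47, 6.32 and 4.25 FPKM in RSCs. It was called higher in SCPs (log2 fold change -1.07, adjusted p = 0.014), a call lost without any one sample except RSC replicate 2, with log2 fold changes of -1.27 to -0.92. Zfp410, an activator of the nucleosome remodeller gene Chd4, was at 24.4, 24.1 and 17.3 FPKM in SCPs and at 12.7, 11.1 and 10.8 FPKM in RSCs (log2 fold change -0.86, adjusted p = 0.0079), a call lost without SCP replicate 2, RSC replicate 2 or RSC replicate 3 (-1.02 to -0.78 over the samples left out). Chd4 itself was at 75.8, 100.4 and 82.9 FPKM in SCPs and at 53.6, 33.7 and 62.2 FPKM in RSCs, without overlap and with adjusted p = 0.036.

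Partners of the G9a and GLP methyltransferases were among those whose call depended on the unnamed transcripts. Zfp462 was at 6.07, 2.92 and 1.76 FPKM in SCPs and at 1.53, 1.05 and 0.779 FPKM in RSCs by named transcripts (adjusted p = 0.081). In the fuller count it was at 18.5, 15.6 and 15.8 FPKM against 6.06, 5.40 and 5.81 FPKM, a log2 fold change of -1.38 (SE 0.12, adjusted p = 9.35e-05). Zfp644 went in the same way from an adjusted p = 0.35 to a log2 fold change of -1.01 (adjusted p = 0.0012). Zfp217, a corepressor partner, was 0 in 2 SCP samples by name, and with unnamed transcripts added it was at 12.0 to 13.3 FPKM in SCPs and at 4.63 to 5.67 FPKM in RSCs, which turned its log2 fold change from 0.87 to -1.13 (adjusted p = 0.000246). Zfp277, a partner of Polycomb proteins, also turned, from 0.35 to -0.68 (adjusted p = 0.0078). The GC-box binding pair Zfp148 and Zfp281, and Zfp143, Zfp335 and Zfp592, passed the threshold in neither count.

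Of 9 tested members tied to cell fate, 3 (33.3%) were higher in SCPs and 1 in RSCs, and in the fuller count 6 (60%) and 1 of 10. Higher in SCPs were 22.3% of the family and 22.4% of all genes, and in the fuller count 54.2% and 34.1%. Zfp521 and Zfp423 were 2 of the 3 members higher in SCPs by named transcripts. These paralogs bind EBF factors, and Zfp423 is also a cofactor of SMADs activated by BMP. Zfp521 was at 11.3, 13.7 and 11.2 FPKM in SCPs and at 2.83, 3.95 and 2.76 FPKM in RSCs (log2 fold change -1.65, SE 0.19, adjusted p = 0.000948). Zfp423 was at 6.41, 9.24 and 8.00 FPKM in SCPs and at 1.80, 1.70 and 2.02 FPKM in RSCs (log2 fold change -1.63, SE 0.20, adjusted p = 0.0012). The highest RSC sample was below the lowest SCP sample in each, and both calls held with each sample left out and with unnamed transcripts added.

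Of the EBF genes, their partners, 3 of 4 were tested by named transcripts and none was called by limma, also at an unadjusted p under 0.05. Ebf3 was at 93.6, 0 and 116 FPKM in SCPs and at 3.86, 0 and 2.35 FPKM in RSCs, and without SCP replicate 2 it was called, with a log2 fold change of -5.37. In the fuller count all 4 EBF genes were higher in SCPs, and with median-of-ratios scaling as well the call of Ebf1 was lost (log2 fold change -0.22, from -0.47). Ebf3 was then at 149, 169 and 116 FPKM in SCPs and at 5.33, 6.51 and 5.96 FPKM in RSCs, a log2 fold change of -4.38 (SE 0.15), and Ebf2 was at 18.7, 22.7 and 27.0 FPKM against 8.05, 11.3 and 8.36 FPKM.

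Zfp503, a NET family repressor also called Nolz1, was at 12.3, 10.9 and 7.49 FPKM in SCPs and at 4.39, 2.80 and 3.82 FPKM in RSCs (log2 fold change -1.26, adjusted p = 0.0077), a call lost without SCP replicate 2 (-1.45 to -1.11 over the samples left out). The other NET family member tested, Zfp703, was at 9.65, 11.2 and 6.23 FPKM in SCPs and at 11.8, 14.1 and 11.3 FPKM in RSCs (log2 fold change 0.45, adjusted p = 0.16). The pair thus lay on opposite sides of 0, with the second short of the threshold, and the difference between the genes was not tested.

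Zfp219, a cofactor of Sox9, is listed at 56.6, 56.0 and 49.0 FPKM in SCPs and at 0, 20.7 and 13.9 FPKM in RSCs, one of the 5 highest means in the family. The 0 in RSC replicate 1 widened the error (SE 1.16) so that its adjusted p was 0.080. With unnamed transcripts added, RSC replicate 1 was at 17.7 FPKM, the groups were 56.0 to 65.4 and 13.9 to 20.7 FPKM, and the log2 fold change was -1.72 (SE 0.15, adjusted p = 0.000123). Zfp467, which promotes adipocyte differentiation, went from adjusted p = 0.098 to a log2 fold change of -0.96 (adjusted p = 0.000727). Zfp365, which binds DISC1, was at 1.60, 1.18 and 2.32 FPKM in SCPs and at 0.729, 0.590 and 0.782 FPKM in RSCs (adjusted p = 0.079). Zfp191, which RefSeq names Zfp24 and which oligodendrocytes need for myelination, was at 19.5, 15.6 and 12.4 FPKM in SCPs and at 11.1, 17.0 and 15.0 FPKM in RSCs, with overlapping groups (adjusted p = 0.67) and a log2 fold change of -0.13 that was 0.07 with median-of-ratios scaling.

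Zfp536, a repressor of neuronal differentiation, was the fate gene higher in RSCs. It was at 5.98, 10.9 and 7.52 FPKM in SCPs and at 25.7, 24.1 and 26.7 FPKM in RSCs, and the RSC samples were close to each other. The log2 fold change was 1.57 (SE 0.21, adjusted p = 0.0019). Once these transcripts were added, the SCP values were 14.3, 10.9 and 14.9 FPKM and the RSC values the same as before, so that the log2 fold change was 0.89 (SE 0.13, adjusted p = 0.0012).

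The remaining members higher in RSCs were Zfp180, Zfp185 and Zfp524. Zfp180, a KRAB zinc finger gene, was at 12.9, 21.5 and 20.4 FPKM in SCPs and at 40.7, 36.4 and 38.5 FPKM in RSCs (log2 fold change 1.07, SE 0.20, adjusted p = 0.0070). Zfp185 encodes a LIM domain protein of the actin cytoskeleton and is a zinc finger gene of another kind. It was at 0.753, 0.871 and 0 FPKM in SCPs and at 2.64, 2.40 and 2.44 FPKM in RSCs, and so reached a mean of 1 FPKM in RSCs alone. Its call (adjusted p = 0.019) was lost without SCP replicate 1 or any RSC replicate, with log2 fold changes of 0.95 to 1.40. Zfp524 was at 7.74, 5.66 and 9.85 FPKM in SCPs and at 14.6, 14.3 and 14.9 FPKM in RSCs (log2 fold change 0.87, adjusted p = 0.015), a call lost without the same 4 samples, over which it ran from 0.68 to 1.03. With unnamed transcripts added 3 more were higher in RSCs, namely Zfp469 (1.31), Zfp862 (1.23) and Zfp964 (0.75), by log2 fold change. Zfp862 was at 3.06, 2.82 and 3.23 FPKM in SCPs and at 9.49, 6.95 and 9.10 FPKM in RSCs in that count.

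Of the 4 tested members tied to signalling, Zfp451, a SUMO ligase, was higher in SCPs, at 13.5, 11.9 and 15.7 FPKM against 5.38, 5.80 and 5.98 FPKM in RSCs (log2 fold change -1.12, SE 0.15, adjusted p = 0.0020). Zfp110 (NRIF) interacts with the p75 neurotrophin receptor and was at 16.0, 12.8 and 15.9 FPKM in SCPs and at 18.4, 16.6 and 21.1 FPKM in RSCs, with adjusted p = 0.14. The receptor gene, Ngfr, was at 233, 173 and 231 FPKM in SCPs and at 1046, 803 and 1068 FPKM in RSCs. The receptor was called higher in RSCs, and its interactor was not. Zfp91, a ubiquitin ligase of noncanonical NF-kappaB signalling and one of the 5 highest means, was at 44.3, 38.2 and 35.7 FPKM in SCPs and at 35.8, 31.1 and 37.8 FPKM in RSCs (adjusted p = 0.31), and its log2 fold change of -0.17 was 0.04 with median-of-ratios scaling. Zfp746 (PARIS), a repressor of Ppargc1a, was at 9.20, 6.12 and 5.84 FPKM in SCPs and at 6.07, 7.93 and 5.60 FPKM in RSCs (adjusted p = 0.79). Zfp414, the last of the 5 highest means, was at 46.4, 40.3 and 33.5 FPKM in SCPs and at 27.1, 21.7 and 22.8 FPKM in RSCs (log2 fold change -0.72, adjusted p = 0.011), a call lost without SCP replicate 1 or 2 or RSC replicate 2 or 3 (-0.84 to -0.61).

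Genes in a list of KRAB corepressors and H3K9 methylation were for the most part higher in SCPs. The list also holds genes of DNA methylation, such as Dnmt1 and Uhrf1. Of its 23 tested genes, 17 (73.9%, where all genes gave 22.4%) were higher in SCPs by limma and none in RSCs, also at an unadjusted p under 0.05. The median log2 fold change was -1.17, and the summed level was 1279 to 1457 FPKM in SCPs and 524 to 577 FPKM in RSCs. Trim28 was at 345, 308 and 299 FPKM in SCPs and at 49.1, 84.3 and 86.7 FPKM in RSCs, a log2 fold change of -2.14 (SE 0.23, adjusted p = 0.000778). With unnamed transcripts added, its RSC values were 84.3 to 99.0 FPKM and the log2 fold change was -1.81 (SE 0.09), still called. Cbx1, which encodes HP1 beta, was at 131, 126 and 123 FPKM in SCPs and at 26.0, 28.6 and 26.5 FPKM in RSCs (log2 fold change -2.19, SE 0.08, adjusted p = 2.50e-05). In both the groups were far apart, and both calls held with each sample left out.

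Setdb1, the methyltransferase that Trim28 brings, was at 19.0, 26.4 and 25.0 FPKM in SCPs and at 9.97, 11.2 and 9.58 FPKM in RSCs (log2 fold change -1.11, SE 0.16). Suv39h1 (-1.17), Cbx5 (-1.01) and the maintenance methyltransferase Dnmt1 (-1.71) were also called, by log2 fold change. Uhrf1, which guides Dnmt1 to replicated DNA, was at 20.5, 15.2 and 16.1 FPKM in SCPs and at 1.97, 4.23 and 0 FPKM in RSCs. Its log2 fold change was -2.86 by named transcripts, a call lost without any SCP sample or without RSC replicate 1 (-3.40 to -2.20), and -1.74 with unnamed transcripts added (adjusted p = 8.80e-05). In that count 22 of the 24 genes of the list (91.7%, where all genes gave 34.1%) were higher in SCPs. Dnmt1 and Uhrf1 are known as genes of dividing cells, and the proliferation genes moved with them, as given above. The part of cell division in these values was not tested.

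**Figure D4:**
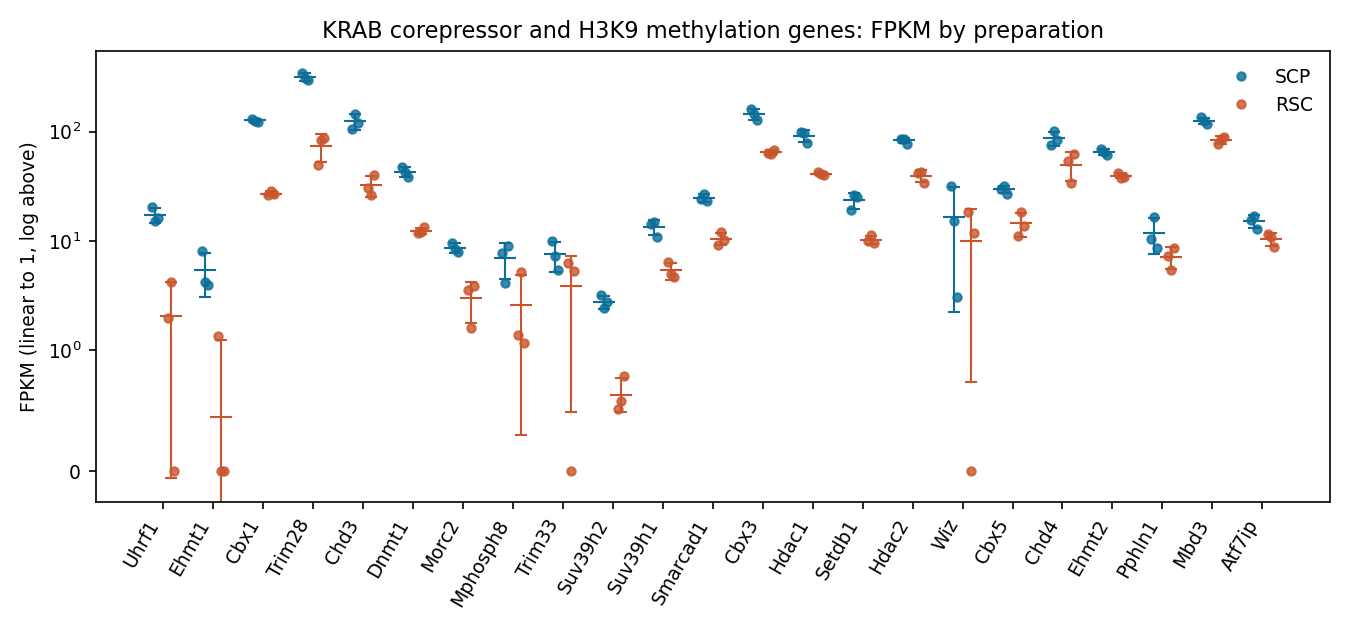
FPKM of the 23 tested genes of KRAB corepressors and H3K9 methylation, ordered by log2 fold change, on an axis that is linear up to 1 FPKM and logarithmic above. Points are samples (blue SCP, red RSC, 3 each), horizontal lines are means and bars are 1 SD. By named transcripts, Trim28 is between 299 and 345 FPKM in SCPs and between 49.1 and 86.7 FPKM in RSCs.

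By position on rn6, chromosome 1 held 53 of the 197 tested members (26.9%), while 13.6% of all tested genes lay there. Of these 53, 15 were higher in SCPs and 4 in RSCs, among the latter Zfp36 (chr1:85380088-85382565), Zfp180 (chr1:80920745-80940038) and Zfp536 (chr1:93843759-94155484). Genes of this family often stand in tandem arrays, whose members can be alike in sequence and share reads, so that neighbouring values may not be independent. Sharing of reads was not tested. Runs of at least 3 tested members with gaps of at most 200 kb numbered 11 and held 48 members, of which 12 were higher in SCPs and 2 in RSCs. Outside the runs 32 of 149 were higher in SCPs.

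One run of 6 members, chr1:88204835-88544681, holds Zfp383, Zfp74, Zfp14, Zfp566, Zfp260 and Zfp420, and was chosen for description after its values were seen. All 6 had a log2 fold change below 0, from -1.59 to -0.42, 3 were called higher in SCPs, and with unnamed transcripts added all 6 were called. Zfp383 was at 14.1, 15.6 and 15.3 FPKM in SCPs and at 5.35, 5.63 and 6.11 FPKM in RSCs (log2 fold change -1.26, SE 0.13). Zfp260, the most abundant of the run, was at 26.8, 31.5 and 34.5 FPKM in SCPs and at 18.1, 19.6 and 20.1 FPKM in RSCs (log2 fold change -0.65, SE 0.13). Zfp420 was at 12.7, 12.9 and 13.2 FPKM against 10.1, 8.83 and 9.39 FPKM, with adjusted p = 0.030.

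Zinc finger genes under other names are given beside the family, with no test of the difference. Of 32 tested Zbtb genes, which carry a BTB domain, 7 were higher in SCPs and 6 in RSCs, with a median log2 fold change of 0.06. Of 9 tested Zscan and Zkscan genes, which carry a SCAN domain, 5 were higher in SCPs and none in RSCs, with a median of -1.24. Of 16 tested genes with Zfp and a letter after it, 4 were higher in SCPs and 1 in RSCs, with a median of -0.66. Over all genes, 22.4% were higher in SCPs and 18.1% in RSCs. With unnamed transcripts added, 10 of 34 Zbtb genes were higher in SCPs and 8 in RSCs, with a median of -0.16. Of 11 Zscan and Zkscan genes, 6 were higher in SCPs and none in RSCs (median -0.72). Of 17 genes with Zfp and a letter, 11 and 1 were (median -0.97). The shares over all genes were then 34.1% and 23.2%.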

How the data were processed

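RNA from 3 SCP and 3 RSC samples was sequenced by the authors as paired-end TruSeq mRNA libraries and aligned to the rat genome rn6 with TopHat, Cufflinks and Cuffdiff, with TopHat2 2.1.0, Cufflinks 2.2.1 and FastQC 0.11.2 named in the submitters' processing notes. The authors deposited, for each sample, Cufflinks transcript FPKM together with the coverage of each transcript, a signal from which relative depth was read. Which strand setting was used is not given in the sources used here. The tables hold no counts, so absolute depth is unknown. Error comes from the spread of 3 preparations a group, which limma moderates towards a trend over all genes in the fit.

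Named transcripts were summed by symbol, leaving out 77 date-named transcripts per table. Symbols whose mean over the 6 samples reached 1 FPKM were fitted on log2(FPKM + 1) with limma 3.58.1 in R 4.3.3 (variance trend, no replicate block, two-sided), which was tested on simulated data, with p adjusted over every gene in the fit by the Benjamini-Hochberg method. Tables were handled with pandas 2.3.3. The members, roles and lists were chosen with earlier results of these data known and written from general knowledge. Genes named are the 10 lowest and up to 10 highest log2 fold changes at p under 0.01 with groups apart, the 5 highest means, members with a written role, list genes and the members beside the threshold. Zfp469, Zfp692, Zfp862, Zfp868, Zfp964, the run on chromosome 1 and the untested members at 0 were named after their values were seen. Promoters come from RefSeq (GRCr8), and their coordinates were not mixed with rn6. Protein features, a planned description, were not used here.

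As alternatives, the fit was repeated with median-of-ratios scaling, quantile normalization, a pseudocount of 0.1, the replicate number as a block, no variance trend, a minimum mean of 5 FPKM, no minimum, the highest transcript per gene, unnamed transcripts added, values of 0 left out, adjusted p under 0.05 and each sample left out. Unnamed transcripts with median-of-ratios scaling or with a sample left out were added after seeing the data.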

Additional observations from a re-analysis of the deposited data

How the results depend on the processing

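Counts of Zfp genes higher in SCPs and in RSCs were 44 and 5. They were 116 and 8 with unnamed transcripts added, 89 and 14 with these and median-of-ratios scaling, 27 and 3 with the replicate number as a block, and 3 in RSCs with the highest transcript per gene. Of all genes, 40.5% were called in either direction, and 57.3%, 54.0%, 32.9% and 38.5% under these alternatives in that order. Leaving out each sample gave 28 to 38 members higher in SCPs and 3 to 5 in RSCs, with 34.3% to 37.5% of all genes called. With unnamed transcripts added it gave 99, 103, 111, 101, 100 and 107 higher in SCPs (without SCP replicates 1 to 3, then RSC replicates 1 to 3) and 7 to 8 in RSCs, with 50.6% to 54.4% of all genes called. Over 4-fold there were 2 higher in SCPs and 1 in RSCs. With median-of-ratios scaling, alone or with unnamed transcripts, the first was 1, with values of 0 left out they were 1 and 2, with the highest transcript 2 were higher in RSCs, and with each sample left out they were 1 to 4 and 1 to 2 (0 to 2 in SCPs with unnamed transcripts). The median log2 fold change was -0.59 to -0.46 with each sample left out and below 0 under every alternative. The correlations of same-numbered deviations were 0.044, -0.0049 and 0.026, and those of differently numbered ones ran from -0.048 to 0.022. SCP replicates 1 and 3 correlated best with the RSC replicate of the same number, and SCP replicate 2 did not. With 3 samples a group, these values cannot settle whether same-numbered samples were prepared together.

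The 22 named Zfp genes that were called kept their direction under every alternative, and 14 kept the call. Of the list genes, Dcp1a, at 0 in every SCP sample and called higher in RSCs, was -0.54 with unnamed transcripts added, called higher in SCPs, and -0.31 with median-of-ratios scaling as well. Direction also turned in these uncalled genes, by log2 fold change. With unnamed transcripts added, Zfp217 was -1.13, Zfp277 -0.68, Zfp593 0.34, Zfp638 -0.54 and Zfp830 -0.89, and with median-of-ratios scaling as well -0.90, -0.43, 0.58, -0.28 and -0.64, when Zfp91 was 0.091, Zfp191 0.21, Zfp598 0.017 and Zfp746 0.049. With that scaling alone, Zfp91 was 0.039, Zfp191 0.073, Zfp593 0.024, Zfp746 0.10 and Ebf1 0.029. With values of 0 left out, Zfp143 was -0.95, Zfp217 -0.59, Zfp281 0.73 and Zfp830 -0.82. With the highest transcript, Zfp191 was 0.10 and Zfp638 -0.033, and with a pseudocount of 0.1 Ebf2 was 0.52. With a sample left out, the ranges were -0.28 to 0.036 for Zfp191, -0.84 to 0.0058 for Zfp335, -0.46 to 0.53 for Zfp638, -0.21 to 0.10 for Zfp746, -0.82 to 1.30 for Zfp830, -0.95 to 1.13 for Zfp143, -0.012 to 0.61 for Zfp36l1 and -0.99 to 0.47 for Ebf2. The cause was not tested. Depth is unknown, so a listed 0 cannot be given a detection limit.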

Other observations

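Zfp710, named after its values were seen, is listed at 0 in all 3 SCP samples and at 0, 18.1 and 16.4 FPKM in RSC replicates 1, 2 and 3. With unnamed transcripts added it was at 23.8, 25.9 and 29.1 FPKM in SCPs and at 12.5, 35.9 and 27.6 FPKM in RSCs, so the absence under its name was not kept. Zfp618, also named after its values were seen, showed the opposite. By named transcripts it was at 1.74, 0 and 3.18 FPKM in SCPs and at 0.319, 1.95 and 2.24 FPKM in RSCs, and with unnamed transcripts added it was at 14.3, 13.8 and 10.0 FPKM in SCPs and at 2.16, 2.28 and 2.24 FPKM in RSCs, a log2 fold change of -2.07 (SE 0.16, adjusted p = 6.71e-05 by limma). It was 1 of the 2 members over 4-fold higher in SCPs in that count, the other being Zfp668.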
